A study of Mus musculus with 2 samples.

Results

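The genes described here are the signal regulatory protein (SIRP) receptors Sirpa, Sirpb1a, Sirpb1b and Sirpb1c, the ligand gene Cd47, and Ptpn6 and Ptpn11, which encode the tyrosine phosphatases SHP-1 and SHP-2. They were taken by symbol, and all 7 were found among the 31053 genes of the count tables. Their counts were summed in cells that were called monocyte-like or granulocyte-like from the marker genes named below, and were then set side by side by cycling state and by sequencing depth per cell.

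SIRPα is an inhibitory receptor of myeloid cells, and its ligand CD47 is carried on the surface of nearly all cells, where it acts as a brake on engulfment. When CD47 binds, tyrosines in the long cytoplasmic tail of SIRPα are phosphorylated and recruit SHP-1 and SHP-2, which remove phosphate from proteins needed for phagocytosis. The SIRPβ1 receptors share the outer structure of SIRPα but have a short tail, and they signal through the adaptor DAP12, encoded by Tyrobp, and the kinase SYK.

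The 2 libraries came from bone marrow of C57BL/6;Balb/c F1 hybrid mice, from which 7-AAD-, CD11b+, Ly6C+ and Ly6G- cells were sorted, without stated age or sex. The radiation control (RC) mice received 300 rads. The severe aplastic anemia (SAA) mice received the same 300 rads and 65000000 B6 splenocytes, a model in which donor lymphocytes attack the host marrow. Each library is a pool of 3 mice, so the values below have no replicates, no p-value between RC and SAA was computed, and the 95% intervals cover counting error only.

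The RC library held 798 barcodes and 4066589 unique molecular identifiers (UMIs, each counting 1 captured transcript), and the SAA library held 825 barcodes and 5592265 UMIs. Barcodes with at least 1000 detected genes were kept, 662 from RC and 729 from SAA. A kept cell was monocyte-like where its UMIs of Csf1r, Ccr2, F13a1, Ms4a6c and Ly86 outnumbered those of the granule and granulocyte genes Camp, Ngp, Fcnb, Cebpe, Elane, Mpo, Prtn3 and Ctsg, and granulocyte-like in the opposite case. This gave 342 RC and 285 SAA monocyte-like cells, with medians of 3347.5 and 6082 UMIs per cell, and 318 RC and 421 SAA granulocyte-like cells, with medians of 6787.5 and 6849. The 8 granulocyte markers summed to 372.5 to 558.1 UMIs per 1000000 UMIs (CPM) in monocyte-like cells and to at least 65096.2 CPM in granulocyte-like cells, and all 5 monocyte markers were detected in both classes. Ly6g, whose product the sort gated against, stood at 137.1 CPM in RC against 133.9 CPM in SAA granulocyte-like cells. The T cell genes Cd3e, Cd3g, Trac, Trbc1 and Trbc2 were at 0 UMIs in both RC classes and were detected in both SAA classes, and 37 SAA barcodes against 1 RC barcode held at least 3 UMIs of CD3 and T cell receptor genes. The 7 T or NK cell markers, of which 2 were detected in RC and all in SAA, summed to 3.68 CPM in RC against 100.6 CPM in SAA monocyte-like cells. The 6 macrophage markers summed to 60.4 and 186.4 CPM there, with C1qb and C1qc at 0 in RC. The higher sum did not hold for every marker, as Adgre1 was at 56.7 CPM in RC against 50.8 CPM in SAA. A single cell barcode occurred in both libraries.

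The inhibitory and activating receptors differ in their tails. Sirpa lies at chr2:129592835-129632228 on the plus strand of GRCm38. Its annotated coding sequence has 1539 bases, and the last 300 of them are shown because they encode the inhibitory tail, with in-frame tyrosine codons in capitals:
Sirpa: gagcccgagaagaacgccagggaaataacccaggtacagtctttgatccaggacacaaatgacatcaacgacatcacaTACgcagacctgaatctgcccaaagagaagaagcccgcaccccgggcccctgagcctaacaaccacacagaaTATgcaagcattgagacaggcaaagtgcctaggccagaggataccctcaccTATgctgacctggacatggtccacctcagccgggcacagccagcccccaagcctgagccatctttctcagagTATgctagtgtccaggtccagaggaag
Of these codons, 4 encode tyrosine. The 3 Sirpb1 genes lie side by side on the minus strand, Sirpb1a at chr3:15371653-15426520, Sirpb1b at chr3:15495751-15575065 and Sirpb1c at chr3:15795145-15848528. Each has a coding sequence of 1191 bases, which ends soon after the membrane-spanning part, as the last 120 bases of Sirpb1a show with the same marking:
Sirpb1a: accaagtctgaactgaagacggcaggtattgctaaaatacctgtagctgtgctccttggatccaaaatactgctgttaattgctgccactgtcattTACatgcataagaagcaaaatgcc
This stretch holds 1 tyrosine codon. The other members lie apart from them, Cd47 at chr16:49800533-49915010 on the plus strand, and on the minus strand Ptpn6 at chr6:124720707-124738714 and Ptpn11 at chr5:121130533-121191397. All sequences are those of GENCODE vM21.

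The 3 activating genes are hard to tell apart. Across the coding sequence, Sirpb1a was 97.5% identical to Sirpb1b and 97.4% to Sirpb1c, and Sirpb1b was 98.3% identical to Sirpb1c, whereas Sirpa was 67.7% to 68.3% identical to each of them. The libraries were read from the 5′ end of transcripts, and the first 120 coding bases are shown because a read within them tells the 3 genes apart only where it covers a base in capitals, at which they differ:
Sirpb1a start: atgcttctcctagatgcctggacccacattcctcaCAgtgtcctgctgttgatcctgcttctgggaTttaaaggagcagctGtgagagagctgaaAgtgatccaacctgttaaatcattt
Sirpb1b start: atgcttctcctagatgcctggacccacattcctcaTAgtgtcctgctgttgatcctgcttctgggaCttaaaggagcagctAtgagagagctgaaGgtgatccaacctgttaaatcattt
Sirpb1c start: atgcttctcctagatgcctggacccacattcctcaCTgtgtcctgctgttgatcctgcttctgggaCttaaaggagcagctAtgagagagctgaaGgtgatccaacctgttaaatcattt
They differ at 5 of the 120 positions. At none of these do all 3 genes differ from each other, and Sirpb1b differs from Sirpb1c only at the adjacent pair of capitals. Of all 90-base windows in the first 500 bases of their annotated coding transcripts, 1.16% for Sirpb1a, 27.0% for Sirpb1b and 43.3% for Sirpb1c occurred letter for letter in one of the other two. Of 50-base windows, 18.5%, 46.1% and 60.9% did, and the length of the reads is not given in the sources used here. No 90-base window of Sirpa, Cd47, Ptpn6 or Ptpn11 occurred in any other gene. The split of UMIs among the 3 Sirpb1 genes is therefore uncertain, and most values are given for their sum. Whether reads that match more than 1 of these genes are missing from the sum was not tested. The reference genome is of the C57BL/6 strain, so 1 of the 2 parental genomes of these mice was not represented in it, in both libraries alike.

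Sirpa, the inhibitory receptor, was lower in SAA than in RC monocyte-like cells and higher in SAA granulocyte-like cells. In monocyte-like cells it had 462 UMIs in RC, or 340.1 CPM (309.8 to 372.6), and 555 UMIs in SAA, or 273.6 CPM (251.3 to 297.4). The SAA to RC ratio was 0.80 (0.71 to 0.91). In granulocyte-like cells Sirpa stood at 118.2 CPM (105 to 132.5) in RC, with 163.2 CPM (149.7 to 177.5) in SAA. That ratio was 1.38 (1.20 to 1.60). The sum of the 5 monocyte markers was also higher in SAA granulocyte-like cells, at 150.8 CPM against 68.95 CPM in RC. Not all of them were: F13a1 was at 26.84 CPM in SAA against 30.65 CPM in RC, and Csf1r at 5.73 against 5.24 CPM. With cells kept where one marker sum was over 3 times the other, the ratio of Sirpa was 1.39 (1.20 to 1.62). The monocyte-like ratio divided by the granulocyte-like one was 0.58 (0.48 to 0.70), an interval that leaves out 1. The receptor was 2.88 times (2.48 to 3.34) as high in monocyte-like as in granulocyte-like cells of RC, and 1.68 times (1.49 to 1.89) as high in SAA.

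The activating Sirpb1 genes were found in monocyte-like cells and nearly nowhere else. Their sum was 169.3 CPM (148.1 to 192.7) in RC monocyte-like cells, from 230 UMIs, and 90.7 CPM (78.1 to 104.8) in SAA, from 184 UMIs. The ratio of 0.54 (0.44 to 0.65) was below that of Sirpa, with intervals that did not overlap. Sirpb1a had a ratio of 0.56 (0.36 to 0.87), Sirpb1b 0.59 (0.40 to 0.85) and Sirpb1c 0.50 (0.37 to 0.66). All 3 were lower in SAA by similar factors, although the split of UMIs among them is uncertain. Sirpb1c took the largest part of the sum, 51.3% of its UMIs in RC and 47.8% in SAA.

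In granulocyte-like cells the Sirpb1 genes had 0 UMIs among the 318 RC cells, with an upper interval limit of 1.488 CPM. Set to 3 UMIs, this count would stand at 1.21 CPM. In SAA they had 11 UMIs in 9 of the 421 cells, or 3.32 CPM (1.66 to 5.94). The RC monocyte-like level was 140 times the granulocyte-like one with the 0 UMIs set to 3. With the count left at 0, the lower interval limit of this ratio was 112.9. In SAA the monocyte-like level was 27.3-fold higher (14.9 to 55.7). The 11 UMIs put the Sirpb1 sum of SAA granulocyte-like cells at 3.66% of its monocyte-like level. Over the 5 monocyte markers that figure was 5.25%, and for Sirpa it was 59.6%. Free RNA and barcodes with RNA of both classes were not separated from transcripts of the cells themselves, and their part in those 11 UMIs was not tested.

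Cd47, the ligand, was higher in SAA in both classes. It stood at 351.2 CPM (320.3 to 384.1) in RC against 403.3 CPM (376.1 to 431.9) in SAA monocyte-like cells, a ratio of 1.15 (1.03 to 1.29). In granulocyte-like cells RC had 379.9 CPM (356 to 404.9), SAA had 525.4 CPM (501 to 550.7), and the ratio was 1.38 (1.28 to 1.5). The monocyte-like ratio was 0.83 times (0.72 to 0.95) the granulocyte-like one. Unlike the receptors, Cd47 was not higher in monocyte-like cells: they held 0.92 times (0.83 to 1.03) the granulocyte-like level in RC and 0.77 times (0.71 to 0.83) in SAA.

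Of the phosphatases, Ptpn6 had a ratio whose interval included 1 in monocyte-like cells, where its 306.3 CPM (277.5 to 337.1) in RC against 330.3 CPM (305.8 to 356.3) in SAA gave a ratio of 1.08 (0.95 to 1.22). In granulocyte-like cells it was 172.6 CPM (156.6 to 189.7) in RC against 237.1 CPM (220.8 to 254.2) in SAA, a ratio of 1.37 (1.22 to 1.55). Ptpn11, expressed in most tissues, stood at 58.9 and 56.7 CPM in monocyte-like cells, a ratio of 0.96 (0.72 to 1.30). In granulocyte-like cells it was 65.7 CPM in RC against 83.9 CPM in SAA, a ratio of 1.28 (1.05 to 1.56). Ptpn6 gave 83.9% (80.3% to 87.0%) of the UMIs of both phosphatase genes in RC monocyte-like cells and 85.4% (82.7% to 87.8%) in SAA, against 72.4% (68.6% to 76.0%) and 73.9% (71.1% to 76.5%) in granulocyte-like cells. This share differed between the classes and, within a class, its intervals overlapped between the libraries.

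**Figure D1:**
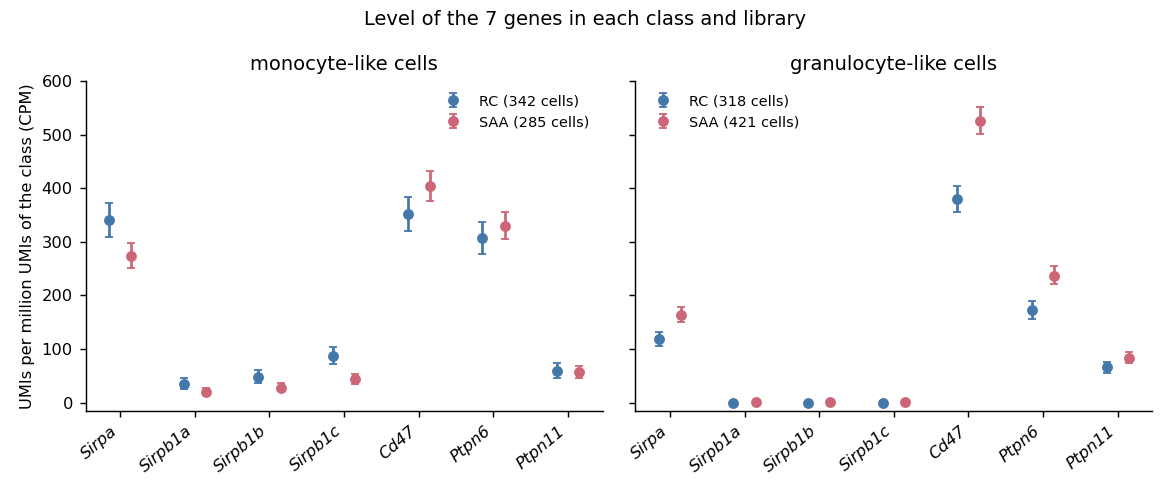
Level of each gene in CPM of the class, on a linear axis, in monocyte-like cells (left) and granulocyte-like cells (right) of the RC and SAA libraries; bars are exact 95% Poisson intervals. Sirpa is lower in SAA on the left and higher on the right, and the Sirpb1 genes lie at or near 0 on the right.

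Of the members, 3 of the 7 tested in monocyte-like cells were lower in SAA past 1.5-fold, the 3 Sirpb1 genes, beside 17.0% of all 6603 genes with at least 50 UMIs. These 3 are nearly identical genes with an uncertain split of UMIs, so they do not count as 3 separate observations. No member was higher past 1.5-fold, beside 14.4% of all genes. In granulocyte-like cells, where 4 members reached 50 UMIs, none was past 1.5-fold, beside 12.9% of 7154 genes higher and 8.79% lower. The ratios of Sirpa, Cd47 and Ptpn6 in granulocyte-like cells were above those of 81.9%, 82% and 81.6% of these genes. In monocyte-like cells, 31.2% of genes had a lower ratio than Sirpa and 67.4% a lower ratio than Cd47. The median log2 ratio of all tested genes was -0.05 in monocyte-like and 0.07 in granulocyte-like cells.

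Cells were next split at a share of 0.5% of their UMIs in S and G2M phase genes. Of the monocyte-like cells, 103 of RC (30.1%) and 153 of SAA (53.7%) were cycling by this measure, and 16 and 22 cells lay between 0.4% and 0.6%, near the boundary. Cycling cells held more UMIs each and gave 44.0% of the monocyte-like UMIs in RC and 66.5% in SAA. Granulocyte-like cells were cycling for 95.3% in RC and 92.6% in SAA, and were not split further.

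Within a library, the receptors were higher in non-cycling than in cycling monocyte-like cells. For Sirpa the non-cycling to cycling ratio was 1.60 (1.32 to 1.958) in RC and 1.54 (1.29 to 1.82) in SAA. For the Sirpb1 sum it was 7.82 (4.98 to 12.9) in RC and 4.004 (2.92 to 5.54) in SAA, which made these genes the members that differed most by cycling state. Ptpn6 was also higher in non-cycling cells, 1.26 times (1.03 to 1.54) in RC and 1.43 times (1.22 to 1.67) in SAA. Cd47 was 1.23 times (1.02 to 1.49) as high in non-cycling cells in RC but 0.83 times (0.71 to 0.97) in SAA, so its order was turned round between the libraries.

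The difference in Sirpa between the libraries was smaller within each state. In non-cycling cells it stood at 407.4 CPM in RC against 356.2 CPM in SAA, a ratio of 0.87 (0.74 to 1.04). In cycling cells it was 254.4 and 232 CPM, a ratio of 0.91 (0.75 to 1.12). Both intervals include 1, while the ratio over all monocyte-like cells was 0.80. Recomputed with the SAA states weighted as in RC, the ratio was 0.89.

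The Sirpb1 sum was 274.7 CPM in RC against 181.1 CPM in SAA non-cycling cells, a ratio of 0.66 (0.52 to 0.83). In cycling cells it was 35.2 and 45.2 CPM, from 21 and 61 UMIs, a ratio of 1.29 (0.77 to 2.23). The first of these ratios divided by the second was 0.51 (0.30 to 0.88). With the SAA states weighted as in RC the ratio was 0.72, against 0.54 without weighting. The non-cycling cells of the libraries were not alike: a UMI of the patrolling monocyte gene Cx3cr1 was present in 119 of 239 RC cells but 0 of 132 SAA cells, and without these cells the ratio was 0.77 (0.58 to 1.02), an interval that includes 1. Among cycling cells no difference was detectable at this depth. The cycling ratio turned to 0.700 (0.501 to 0.983) where cells were called cycling from 0.3% on.

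Cd47 behaved in the opposite way. In cycling monocyte-like cells it was 311.3 CPM in RC, from 186 UMIs, and 427.7 CPM in SAA, from 577 UMIs, a ratio of 1.37 (1.16 to 1.63). In non-cycling cells it was 382.5 and 354.8 CPM, a ratio of 0.93 (0.78 to 1.10). The non-cycling ratio divided by the cycling one was 0.68 (0.53 to 0.86). Cd47 thus differed between the libraries among cycling cells, where its ratio was close to that of cycling granulocyte-like cells, 1.38 (1.27 to 1.5).

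Ptpn6 was higher in SAA among non-cycling monocyte-like cells, at 412.2 CPM against 336.5 CPM in RC, a ratio of 1.23 (1.03 to 1.46). Of these cells, 92 in SAA and 1 in RC held a UMI of the interferon-induced chemokine gene Cxcl9. Without them the ratio was 0.91 (0.66 to 1.22), from 54 UMIs in 40 SAA cells. The upper end of this interval lay next to the ratio over all non-cycling cells. Whether the higher level of Ptpn6 was confined to cells with Cxcl9 was therefore not settled. Among cycling cells Ptpn6 was at 289.1 CPM in SAA and 267.8 CPM in RC, a ratio of 1.08 (0.90 to 1.31), and the difference between the states was within counting error, at 1.14 (0.88 to 1.46). Ptpn11 had 33 to 78 UMIs in each state and library, and its ratios of 0.88 (0.56 to 1.39) and 1.05 (0.69 to 1.62) were not distinguishable from 1.

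**Figure D2:**
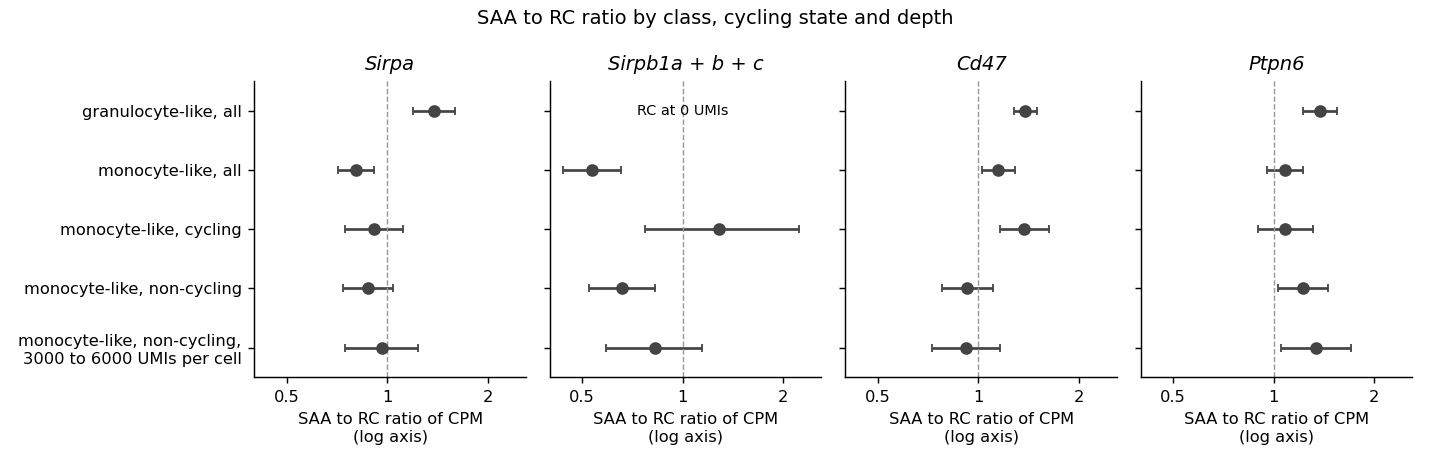
SAA to RC ratio of CPM, on a log axis, for Sirpa, the sum of the Sirpb1 genes, Cd47 and Ptpn6 in 5 groups of cells; points are ratios, bars exact 95% conditional binomial intervals, and the dashed line marks 1. The ratio of Sirpa is above 1 in granulocyte-like cells and below 1 in the 4 monocyte-like groups, the Sirpb1 sum had no RC UMI in granulocyte-like cells, and the ratio of Cd47 is above 1 in cycling but not in non-cycling monocyte-like cells.

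SAA monocyte-like cells held more UMIs per cell than those of RC, and the members were therefore also compared at like depth. The bins held 142 RC and 30 SAA cells under 3000 UMIs, 158 and 111 cells from 3000 to 6000, 40 and 109 from 6000 to 12000, and 2 and 35 above. In both libraries the receptors were lower in cells with more UMIs. Sirpa went from 487 CPM in the shallowest to 311.6 and 246.1 CPM in the next bins of RC, and from 409.6 to 296.7 and 280.3 CPM in SAA. The Sirpb1 sum went from 322.8 to 159.6 and 31.2 CPM in RC, and from 218.4 to 146.4 and 77.9 CPM in SAA. Cycling cells made up 12 of 142, 50 of 158 and 39 of 40 RC cells of these bins, and 9 of 30, 34 of 111 and 78 of 109 SAA cells, so depth and cycling state moved together and their parts were not separated.

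At like depth the SAA to RC ratio of Sirpa was 0.84 (0.55 to 1.24) under 3000 UMIs, 0.95 (0.77 to 1.18) from 3000 to 6000, and 1.14 (0.88 to 1.49) from 6000 to 12000, with 1 inside each interval. That of the Sirpb1 sum was 0.68 (0.37 to 1.15), 0.92 (0.67 to 1.25) and 2.50 (1.29 to 5.44), the last from 10 RC and 72 SAA UMIs. Of the cells in that last bin, 39 of 40 in RC but 78 of 109 in SAA were cycling. Among these cycling cells the ratio of the Sirpb1 sum was 1.58 (0.76 to 3.59), from 10 and 34 UMIs, which includes 1. Cd47 had ratios of 1.05 (0.67 to 1.60) and 0.98 (0.81 to 1.19) in the lower bins and of 1.65 (1.30 to 2.11) from 6000 to 12000 UMIs. Ptpn6 had ratios of 1.28 (0.85 to 1.88), 1.24 (1.01 to 1.52) and 1.25 (0.98 to 1.62), nearly the same size at each depth.

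**Figure D3:**
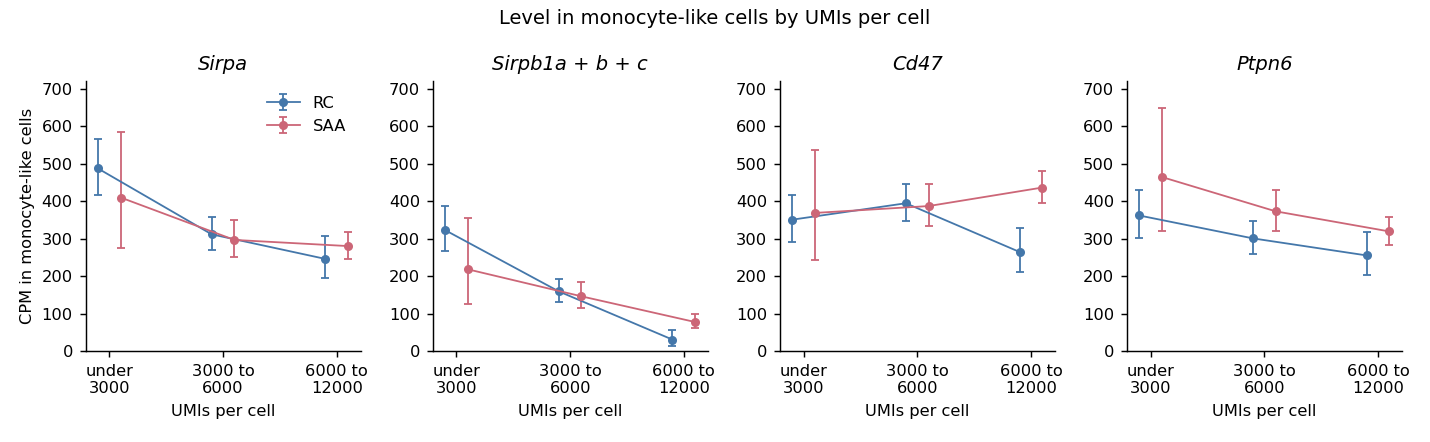
CPM of Sirpa, the Sirpb1 sum, Cd47 and Ptpn6 (linear axes) in monocyte-like cells binned by UMIs per cell, for RC and SAA; bars are exact 95% Poisson intervals. Sirpa and Sirpb1 levels are lower in deeper cells of both libraries. At 3000 to 6000 UMIs the libraries lie close together for Sirpa, the Sirpb1 sum and Cd47 but not for Ptpn6. Cd47 and the Sirpb1 sum part at 6000 to 12000.

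The closest match of both was the 108 RC and 77 SAA non-cycling monocyte-like cells with 3000 to 6000 UMIs. There Sirpa was 353.4 CPM in RC against 339.8 CPM in SAA, a ratio of 0.96 (0.75 to 1.23), and Cd47 was 412.3 and 378.2 CPM, a ratio of 0.92 (0.72 to 1.16). The Sirpb1 sum was 226.2 and 186.2 CPM, a ratio of 0.82 (0.59 to 1.14). Ptpn6 was the member whose interval left out 1 in these cells, at 315.7 CPM in RC against 422.6 CPM in SAA, a ratio of 1.34 (1.05 to 1.71). The interval of Sirpa still held the ratio of 0.80 seen over all monocyte-like cells, so these cells do not show that the libraries were alike.

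Among the 50 RC and 34 SAA cycling cells with 3000 to 6000 UMIs, the ratio of Cd47 was 1.12 (0.80 to 1.57), which includes 1. Among the cycling cells with 6000 to 12000 UMIs, 39 in RC and 78 in SAA, Cd47 was 270.6 and 473.5 CPM, a ratio of 1.75 (1.37 to 2.25). Sirpa was 245.1 and 261.9 CPM in the same cells, a ratio of 1.07 (0.81 to 1.42). The ligand differed between the libraries in these cells, and a difference in the receptor was not detectable.

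The balance of activating to inhibitory receptor transcripts was read from the Sirpb1 share of all Sirpa and Sirpb1 UMIs, which does not depend on the scaling of a library. Capture can differ between genes, and the Sirpb1 sum may miss reads common to its genes. The share was therefore compared between groups of cells only. It was 33.2% (29.7% to 36.9%) in RC and 24.9% (21.8% to 28.2%) in SAA monocyte-like cells, with intervals that did not overlap. They did overlap where one marker sum had to be over 3 times the other, at 33.8% (30.3% to 37.6%) and 28.6% (24.99% to 32.4%). In non-cycling cells it was 40.3% (36.0% to 44.6%) in RC and 33.7% (28.9% to 38.8%) in SAA. In cycling cells it was 12.1% (7.67% to 18.0%) and 16.3% (12.7% to 20.5%). From 3000 to 6000 UMIs it was 33.9% (28.6% to 39.5%) and 33.0% (26.9% to 39.7%), and from 6000 to 12000 UMIs the order was the opposite, at 11.2% (5.52% to 19.7%) in RC and 21.8% (17.4% to 26.6%) in SAA. Among the cycling cells of the deeper bin it was 11.5% (5.65% to 20.1%) in RC and 16.1% (11.4% to 21.8%) in SAA. The share was more than 2 times as high in non-cycling as in cycling cells of each library, and within a state or in either of these bins the intervals of the libraries overlapped. Such overlap does not show that the shares were equal, and no interval of their difference was computed. In granulocyte-like cells the share was 0 of 293 UMIs in RC and 11 of 552 in SAA, or 1.99% (0.999% to 3.54%).

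**Figure D4:**
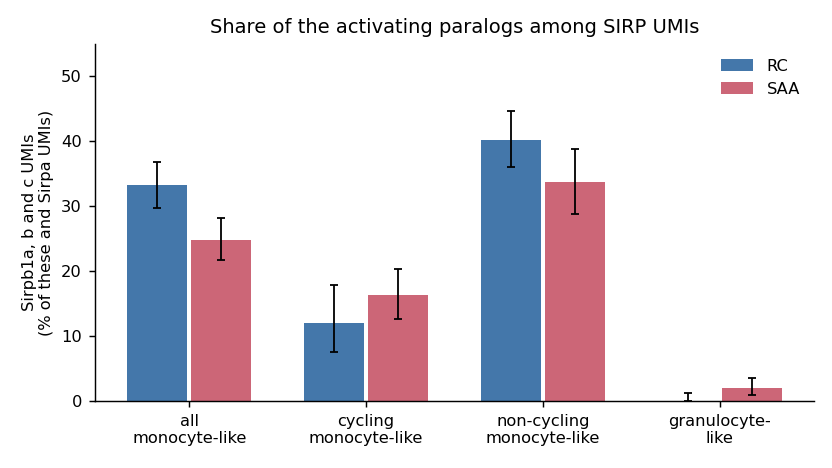
UMIs of the 3 Sirpb1 genes as a percent of these and Sirpa UMIs, on a linear axis from 0, in RC and SAA cells by class and cycling state; error bars are exact 95% binomial intervals. The share is 33.2% against 24.9% over all monocyte-like cells, and 40.3% against 33.7% and 12.1% against 16.3% within the non-cycling and cycling cells.

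The share of cells with at least 1 UMI of a gene grows with depth, so each cell was thinned to 2600 UMIs, which left out 76 RC and 18 SAA monocyte-like cells and 1 and 8 granulocyte-like cells. Before thinning, 70.2% of RC monocyte-like cells held a Sirpa UMI, and 80% of those of SAA. After thinning it was detected in 57.1% of 266 RC and 48.3% of 267 SAA cells, a difference of -8.83 percentage points (-17.1 to -0.36). Thinning thus turned the order of the libraries, but at 1300 UMIs, where no monocyte-like cell was left out, the difference was -4.50 points (-11.95 to 3.08), which includes 0. As a background, Sirpa was detected in 1 of the 20 thinned SAA barcodes with CD3 and T cell receptor genes that were not granulocyte-like, or 5%, and no Sirpb1 UMI was found in them; 29 such barcodes, with a median of 3732 UMIs, were present before thinning.

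Before thinning, 41.2% of RC monocyte-like cells and 37.2% of those of SAA held a UMI of any Sirpb1 gene, and after thinning 30.8% and 20.6% did, a difference of -10.2 points (-17.5 to -2.81). At 1300 UMIs it was -8.19 points (-13.9 to -2.34). Cd47 was detected in 58.7% and 64.8% after thinning, and Ptpn6 in 53.0% and 59.9%, differences of 6.15 points (-2.10 to 14.3) and 6.92 points (-1.49 to 15.2). Among non-cycling cells, the difference for Ptpn6 was 16.1 points (4.46 to 27.0), from 50% of RC to 66.1% of SAA cells, with 71 RC and 14 SAA cells left out. At 1300 UMIs, with all cells kept, it was 7.20 points (-3.07 to 17.5), which includes 0. The T cell barcodes, which express both genes, held Cd47 in 50% and Ptpn6 in 30% of cells, so these genes have no class that lacks them here.

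In granulocyte-like cells thinned shares were higher in SAA for Sirpa, at 27.8% and 39.5%, a difference of 11.7 points (4.79 to 18.4). For Cd47 they were 60.3% and 72.2%, a difference of 11.9 points (4.99 to 18.8), and for Ptpn6 35.3% and 46.7%, a difference of 11.4 points (4.20 to 18.4). More SAA granulocyte-like cells carried each of these transcripts at equal depth. These 3 genes were higher by nearly the same factor in this class, at 1.37 to 1.38.

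Granulocyte-like cells were also divided by whether UMIs of the early azurophil granule genes Elane, Mpo, Prtn3 and Ctsg outnumbered those of the later specific granule genes Camp, Ngp and Ltf. Sirpa was lower in azurophil than in specific granule cells, 0.65 times (0.47 to 0.89) in RC and 0.69 times (0.51 to 0.91) in SAA. Its SAA to RC ratio was 1.40 (0.94 to 2.11) in the former and 1.33 (1.14 to 1.56) in the latter. Cd47 had ratios of 1.09 (0.91 to 1.32) and 1.46 (1.33 to 1.60), and the first divided by the second was 0.75 (0.61 to 0.92), so that the higher Cd47 of SAA was seen in specific granule cells. Ptpn6 had ratios of 1.52 (1.13 to 2.06) and 1.33 (1.16 to 1.51).

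By depth, Cd47 in granulocyte-like cells had a ratio of 1.67 (1.40 to 2.01) from 3000 to 6000 UMIs, 1.44 (1.28 to 1.61) from 6000 to 12000 and 1.10 (0.95 to 1.28) above 12000. Sirpa had ratios of 1.25 (0.95 to 1.65), 1.502 (1.23 to 1.85) and 1.28 (0.93 to 1.79) in the same bins, above 1 in each although 1 of the 3 intervals left out 1. Ptpn6 had ratios of 1.31 (1.03 to 1.66), 1.35 (1.14 to 1.60) and 1.48 (1.15 to 1.93). All 3 genes were above 1 in each of these bins. Under 3000 UMIs, with 5 RC and 15 SAA cells, counts were too low to compare.

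The genes around the receptors were described by lists of their partners, with a gene called past 1.5-fold where it had at least 50 UMIs. Over all tested genes, 14.4% were higher and 17.0% lower in monocyte-like cells, and 12.9% and 8.79% in granulocyte-like cells. The counts of each list stand beside these shares, and no list was tested against them. Partner genes were compared over all cells of a class, without a split by cycling state or depth. Among ligands and modifiers of SIRP receptors and CD47, 3 of 8 genes were tested in monocyte-like cells. Calr, which encodes calreticulin, an engulfment signal read together with CD47, was 4.78 times (4.05 to 5.67) as high in SAA, at 566 CPM against 118.5 CPM. Lrp1, which encodes the receptor for calreticulin, was 0.36 times (0.30 to 0.44) as high, at 90.2 CPM against 247.4 CPM. Ubqln1, a ubiquilin gene, was not past 1.5-fold (1.05), and the thrombospondin gene Thbs1 had too few UMIs, 32 and 11. In granulocyte-like cells, 2 genes were tested and none was called, with Calr at 1.33 times (1.19 to 1.498).

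On the side of the activating receptors, 11 of the 12 listed genes were tested in monocyte-like cells, 1 higher and 3 lower in SAA, and the median log2 ratio was -0.25. The higher one, Fyn (1.70), was named after its value was seen. Tyrobp, the adaptor without which SIRPβ1 cannot signal, was at 3733.9 CPM in RC against 1840 CPM in SAA, a ratio of 0.49 (0.47 to 0.51). The ratio of the Sirpb1 sum was 0.54, but 0.72 with the SAA states weighted as in RC, and Tyrobp was not weighted in this way. Hcst, a relative of Tyrobp, was 0.62 times (0.48 to 0.79) as high, and the Src family kinase gene Fgr 0.58 times (0.46 to 0.72). Syk with a ratio of 0.75 (0.62 to 0.91) and Lyn with 1.08 were not past 1.5-fold. In granulocyte-like cells 3 of 10 tested genes were higher and 1 was lower. Among the higher ones were Lyn at 2.14 times (1.83 to 2.51) and Fgr at 1.55 times (1.26 to 1.93), and the lower one was Hcst at 0.67 times (0.59 to 0.75), while Tyrobp had a ratio of 0.73 (0.69 to 0.78).

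Among the scaffolds and kinases that work with SIRPα, 1 of 10 tested genes was higher in SAA monocyte-like cells and none was lower, and the median log2 ratio was -0.04. The 1 was the cytokine receptor kinase gene Jak2, at 2.08 times (1.62 to 2.71). The adaptor gene Skap2 had a ratio of 1.11 (0.95 to 1.31), Fyb of 0.84 (0.73 to 0.98), Cbl of 0.93 and the myosin gene Myh9 of 0.76 (0.68 to 0.84). In granulocyte-like cells 2 of 10 were higher and none was lower, Skap2 at 1.56 times (1.34 to 1.83) and Fyb, named after its value was seen, at 4.28 times (2.78 to 6.83). Grb2 had a ratio of 1.09 there, and Cbl and Myh9 of 1.14 and 0.88.

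Of the integrin genes listed beside CD47, none of 6 tested was higher and 1 was lower in monocyte-like cells, with Itga4 at 0.84 (0.74 to 0.95), Itgb2 at 1.02, Itgam at 0.73 and Itgb1 at 0.83 times the RC level. The lower one, Itgav (0.48), was named after its value was seen. In granulocyte-like cells 1 of 7 was higher, Itgal, which encodes the LFA-1 chain of leukocyte adhesion, at 1.60 times (1.30 to 1.98), and 2 were lower, Itgav (0.61) and Itgb3 (0.44), also named afterwards. Itgb2 was at 1.33, Itgam at 1.14 and Itga4 at 1.16 times the RC level there.

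Other inhibitory receptors that bind SHP-1 differed in both directions. In monocyte-like cells 4 of 11 tested genes were higher and 4 lower. Cd300lf was at 133.6 CPM in SAA and 18.4 CPM in RC, a ratio of 7.26 (4.81 to 11.4), and the collagen receptor gene Lair1 at 99.1 and 15.5 CPM, a ratio of 6.41 (4.08 to 10.6). Cd300a was 0.30 times (0.24 to 0.38), Ceacam1 0.36 times (0.27 to 0.48) and the lectin gene Clec4a2 0.37 times (0.30 to 0.44) as high, while Pirb had a ratio of 1.47 (1.26 to 1.71) and Clec12a of 1.12. In granulocyte-like cells 6 of 12 were higher and 3 lower, with Pirb at 2.48 times (1.95 to 3.17), Ceacam1 at 1.82 times, Cd300lf at 1.78 times and Pilra at 1.74 times, and with Clec4a2 at 0.59 and Clec12a at 0.61 times. Siglece had a ratio of 1.15. The other called genes, named after their values were seen, were Pilra (1.54), Pecam1 (3.05) and Siglece (0.63) in monocyte-like cells, and Lilrb4a (3.797), Cd200r1 (1.85) and Cd33 (0.35) in granulocyte-like cells. Ceacam1, like Sirpa, was lower in SAA monocyte-like and higher in SAA granulocyte-like cells.

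Of the other phosphatases of myeloid cells, 2 of 13 tested genes were higher and 5 lower in monocyte-like cells. Ptpre was at 0.57 times (0.47 to 0.68), Ptprj at 0.66 times (0.54 to 0.81) and Ptpro at 0.45 times (0.35 to 0.59) the RC level, whereas Ptpn18 and Ptprc, which encodes CD45, had ratios of 0.91 and 0.93, and Ptpn1 of 1.43 (1.23 to 1.67). In granulocyte-like cells 3 of 12 were higher, Ptpn1 at 2.14 times (1.71 to 2.69), Ptprc at 1.71 times (1.53 to 1.91) and Ptpn12 at 1.51 times (1.24 to 1.84), and 1 was lower. Ptpn18, Ptpre and Ptpn7 had ratios of 1.12, 0.85 and 0.84 there. The other called genes, again named afterwards, were Ptpn2 (1.58), Ptpn9 (1.55), Ptpn12 (0.26) and Ptpn22 (0.60) in monocyte-like cells and Ptpn22 (0.66) in granulocyte-like cells. Ptpn6 was past 1.5-fold in neither class.

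Over the 8 groups made by library, class and cycling state, the genes whose log2(CPM + 1) followed Sirpa most closely were Ccnl1 (Pearson r = 0.98), Tor1aip1 (0.98) and Wfdc17 (0.98), of 2491 genes with at least 500 UMIs. For Ptpn6 they were Ptpn1 (0.98), Picalm (0.97) and Pla2g7 (0.97). For Cd47 they were Kri1 (0.89), Lipg (0.88) and Rab6a (0.82), so no gene followed Cd47 as closely as the leading ones followed Sirpa and Ptpn6. The 8 groups come from 2 libraries and are not independent, and these values are descriptions.

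Among non-cycling RC monocyte-like cells, the 119 with a UMI of Cx3cr1 had 1.36 times (1.07 to 1.73) the Cd47 level of the 120 without, at 440.5 and 323.4 CPM, and 1.10 times (0.88 to 1.39) the Sirpa level. Among non-cycling SAA monocyte-like cells, the 92 with a UMI of Cxcl9 had 1.48 times (1.10 to 2.03) the Ptpn6 level of the 40 without, at 450.4 and 304 CPM, and 1.26 times (0.93 to 1.75) the Sirpa level.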

How the data were processed

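Bone marrow cells were sequenced with the Chromium single-cell 5′ v2 chemistry. The authors deposited UMI counts per gene and barcode for called cells, made with Cell Ranger 6.0.1 against mm10 per the labels, without normalization. From these, counts were summed per library and class and expressed as CPM with exact Poisson intervals (95%), ratios with exact conditional binomial intervals, shares with Clopper-Pearson intervals, ratios of ratios with a normal approximation on the log scale and differences of shares with Newcombe intervals, using pandas 2.3.3, scipy 1.17.1 and numpy 2.4.6 under Python 3.11.15. A count of 0 was compared as 3 counts. Depth was 4066589 and 5592265 UMIs. Scrublet (scanpy 1.11.5, expected rate 1%) called 2 RC and 12 SAA barcodes as doublets, which were kept in the analysis and removed in an alternative. The other alternatives concern cell filters, class rule, scaling (edgeR 4.0.16), weighting, thinning (seed 42) and thresholds. All 7 gene identifiers matched GENCODE vM21 (GRCm38), the source of sequences (the longest coding sequence of each gene), aligned with Biopython 1.88. Members, lists and rules were chosen with earlier results of these data known. Named genes were the members, up to 4 genes per list with most UMIs, list genes past 1.5-fold with at least 200 UMIs and the 3 genes most like Sirpa, Cd47 and Ptpn6. The ratio intervals were tested on simulated class sums with Poisson counting error only, which leaves out any spread between cells or mice. No kept cell exceeded the 25% mitochondrial limit of the study. Figures were drawn with matplotlib 3.10.9. The labels give no day of harvest for these libraries. One listed gene that the rule names is not reported here.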

Additional observations from a re-analysis of the deposited data

Results flagged for a closer look

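Sirpa stood out because its SAA to RC ratio was below 1 in monocyte-like cells, 0.80 (0.71 to 0.91), and above 1 in granulocyte-like cells, 1.38 (1.20 to 1.60). The first divided by the second was 0.583 (0.483 to 0.703), or 0.670 (0.526 to 0.854) between the cycling cells of both classes. The interval covers counting error only, and with 1 library per condition the difference between the classes was not tested.

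Transcripts of the members also appeared in the 136 RC and 96 SAA barcodes with under 1000 detected genes, which the comparisons did not use. Sirpa had 99 UMIs there in RC and 46 in SAA, and the Sirpb1 sum had 51 and 9. Cd47 had 84 and 70 UMIs, Ptpn6 65 and 49, and Ptpn11 16 and 15. Of these barcodes, 94 of RC and 36 of SAA were monocyte-like by the same marker rule, and held 48 and 8 of the Sirpb1 UMIs.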

How the results depend on the processing

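Results were recomputed under the alternatives that apply to them, 217 values for 47 results. Each monocyte-like ratio of the members had 14 alternatives, each granulocyte-like ratio 12, each ratio by cycling state 2 and each share of cells and Sirpb1 share 1. Ratios of ratios, ratios by depth or granule stage, phosphatase shares and the ratios of the listed partner genes had none. Of the 217 values, 193 stayed inside the interval of the value reported (counts, within 1.5 times). These include the values under the limit of 25% mitochondrial UMIs, which removed no kept cell and so could not change a ratio. In granulocyte-like cells the ratios of Sirpa (1.26 to 1.42), Cd47 (1.32 to 1.54) and Ptpn6 (1.27 to 1.45) stayed above 1 throughout, and that of Ptpn11 was 1.14 to 1.73. In monocyte-like cells, under these 14 alternatives, the ratio of Sirpa stayed below 1 (0.78 to 0.96), that of the Sirpb1 sum too (0.50 to 0.82), that of Ptpn6 above 1 (1.07 to 1.34) and that of Ptpn11 lay on either side (0.95 to 1.14). The depth bins of all monocyte-like cells were not among them. From 6000 to 12000 UMIs, Sirpa was 1.14 (0.88 to 1.49) and the Sirpb1 sum 2.50 (1.29 to 5.44), or 1.58 (0.76 to 3.59) in the cycling cells of that bin. Among cycling cells the Sirpb1 sum was 1.29 (0.77 to 2.23). With at least 1500 genes and at most 10% mitochondrial UMIs, the monocyte-like ratio of Sirpa was 0.931 (0.80 to 1.09), which includes 1. That of the Sirpb1 sum was then 0.733 (0.57 to 0.95). In non-cycling monocyte-like cells of 3000 to 6000 UMIs, an alternative added after seeing the data, as was weighting by cycling state, Cd47 turned to 0.917 and Sirpb1b to 1.16, and Sirpa was 0.962, the Sirpb1 sum 0.823 and Ptpn6 1.34. Weighted by the cycling states of RC, the Sirpb1 sum was 0.716. With the cycling threshold at 0.3%, the ratio of the Sirpb1 sum in cycling cells was 0.700 and lay below 1. TMM factors raised all monocyte-like log2 ratios by 0.10. Removing barcodes with T or NK marker UMIs, of which Nkg7 is also a granulocyte transcript here (395.6 CPM in RC), gave Cd47 1.54 in granulocyte-like cells. Removal by T cell receptor genes alone, added after seeing the data, moved no ratio out of its interval. Ptpn11 in granulocyte-like cells was 1.73 with thinned cells, and its share differed by 11.6 points at 2600 UMIs but 2.83 at 1300. The Sirpb1 share in SAA monocyte-like cells was 28.6% with a class margin of 3 times. Genes past 1.5-fold numbered 954 higher and 1120 lower in monocyte-like and 926 and 629 in granulocyte-like cells with at least 50 UMIs. With at least 200 UMIs they were 367, 333, 423 and 150, with 1 UMI in each library 1828, 2411, 1656 and 2023, and with 20 UMIs the lower ones were 1692 and 1116. Counting error limits the Sirpb1 genes and Ptpn11 most, and the spread between mice cannot be seen. No paired analysis was possible because each condition has 1 library.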

Other observations

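Next to the Sirpb1 genes on chromosome 3 the annotation has 2 further predicted genes of the same family, Gm9733 (15296551 to 15332302) and Gm5150 (15946870 to 16006437). They are no members of the set above and were looked at after its values had been seen. Gm9733 was at 176.7 CPM in RC against 106.5 CPM in SAA monocyte-like cells, a ratio of 0.60 (0.50 to 0.73). These counted levels were above the Sirpb1 sum of 169.3 and 90.7 CPM, which may miss reads common to the Sirpb1 genes. In non-cycling cells the ratio of Gm9733 was 0.55 (0.42 to 0.70) and in cycling cells 1.34 (0.93 to 1.98). Unlike the Sirpb1 genes, Gm9733 was also found in granulocyte-like cells, with 30.2 CPM in RC against 13.3 CPM in SAA, a ratio of 0.44 (0.30 to 0.65). Gm5150 had a ratio of 0.53 (0.34 to 0.81) in monocyte-like cells, from 52 and 41 UMIs, and 1 and 2 UMIs in granulocyte-like cells. Over the coding sequence, Gm5150 was 79.0% to 79.6% and Gm9733 70.2% to 71.2% identical to the Sirpb1 genes, and no 90-base window of the first 500 bases of either occurred in another gene.

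In thinned non-cycling monocyte-like cells, Sirpa was detected in 72.4% of 76 RC cells with a Sirpb1 UMI and in 57.6% of the 92 without. In SAA it was detected in 65.9% of 41 cells with and in 57.1% of 77 without. The 23 SAA barcodes with equal marker sums held 40 Cd47, 14 Ptpn6, 0 Sirpa and 1 Sirpb1 UMIs, and 22 of them held at least 3 UMIs of CD3 and T cell receptor genes.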
